A study of Mus musculus with 10 samples.

Results

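Granzymes are serine proteases that cytotoxic lymphocytes store in granules and release onto a target cell, and perforin forms the pores through which they reach the cytosol. Granzyme A (*Gzma*) and granzyme K (*Gzmk*) cleave after basic residues, granzyme B (*Gzmb*) cleaves after aspartate and activates caspases, granzyme C (*Gzmc*) lies next to *Gzmb* in a gene cluster, and granzyme M (*Gzmm*) prefers methionine or leucine. These genes are known mainly from natural killer (NK) cells and cytotoxic T cells, and group 2 innate lymphoid cells (ILC2s) are known for type 2 cytokines. Here the open chromatin regions (OCRs) of these 6 genes were examined in ILC2s of 5 tissues.

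ATAC-seq, in which a transposase inserts adapters into open chromatin, was performed on ILC2s sorted from C57BL/6 male mice aged 6 weeks. The tissues were small intestine (SI), large intestine (LI), pancreas, lung, and bone marrow (BM). Each tissue had 2 libraries of 50000 sorted cells, with pools of 10 mice for the 2 intestines and of 16 mice for the other tissues. All mice were wild type. BM cells were sorted as Lin– ST2+ CD25+ on one instrument. LI, lung, and pancreas cells were sorted on another instrument as Lin– CD45+ CD127+ ST2+ CD25+. SI cells, also Lin– and sorted on that instrument, were selected by CD45, CD127, KLRG1, and a reduced level of Thy1. The gate and the tissue therefore cannot be told apart in comparisons with BM or SI, nor the instrument and the tissue in comparisons with BM. LI, lung, and pancreas shared a gate and an instrument. The isolation of cells differed, however. Marrow was flushed, lung and pancreas were digested for different times, and the intestines were shaken with EDTA before digestion. The preparation and the tissue therefore cannot be told apart, except between LI and SI, for which the study describes the same isolation. The study calls the 2 libraries of a tissue biological repeats, without saying how the pools of mice were divided between them, and the p-values measure the spread between these libraries.

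An OCR was assigned to a gene if its centre lay inside the gene or if the nearest transcription start site (TSS) of a curated RefSeq transcript was that of the gene. Of 50039 OCRs of the table, 11 were assigned in this way. *Gzmb* and *Prf1* had 3 each, *Gzma* and *Gzmk* 2 each, *Gzmm* 1, and *Gzmc* none, so that 5 of 6 genes are described below. Assignment by distance does not tell which gene an OCR regulates. With predicted transcripts and pseudogenes in the annotation, 4 of the 11 (*Gzmb* −22213 and −34651, *Prf1* +8478 and +36861) were nearer to another gene. OCRs are named by the gene and the distance of their centre to its nearest TSS in bp. They are named as the promoter where the centre lay from 1000 bp upstream to 100 bp downstream of the TSS. The positions are those of the deposited table (mm10), and all 11 OCRs passed the filter of at least 1 count.

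*Gzma* (chr13:113093824-113100981, minus strand) and *Gzmk* (chr13:113171630-113180965, minus strand) are neighbours whose TSSs lie 80.0 kb apart. *Gzmb* (chr14:56258836-56262334) and *Gzmc* (chr14:56231400-56234657) share the minus strand and a gene cluster, with TSSs 27.7 kb apart. *Prf1* (chr10:61297836-61304263) and *Gzmm* (chr10:79689020-79695261) lie on the plus strand of chromosome 10. The promoter OCRs of *Gzma*, *Gzmb*, and *Prf1* each cover the 250 bases before the TSS, and these bases are shown because the accessibility of all 3 promoters differed among tissues. They are RefSeq sequences of GRCm38.p6 (the assembly of mm10), read 5′ to 3′ on the strand of the gene, and the capitals mark the motif matches named after them.
Gzma promoter chr13:113100982-113101231, minus strand: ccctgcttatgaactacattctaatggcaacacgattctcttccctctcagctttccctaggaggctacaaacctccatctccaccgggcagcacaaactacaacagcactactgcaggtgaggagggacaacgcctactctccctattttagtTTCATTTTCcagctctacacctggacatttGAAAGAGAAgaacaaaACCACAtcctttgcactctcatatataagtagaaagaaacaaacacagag
Gzmb promoter chr14:56262335-56262584, minus strand: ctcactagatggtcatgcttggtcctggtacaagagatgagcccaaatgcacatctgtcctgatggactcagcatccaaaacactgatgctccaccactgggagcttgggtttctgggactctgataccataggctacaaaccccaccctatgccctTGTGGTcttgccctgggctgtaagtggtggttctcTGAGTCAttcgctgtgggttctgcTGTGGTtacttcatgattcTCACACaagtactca
Prf1 promoter chr10:61297586-61297835, plus strand: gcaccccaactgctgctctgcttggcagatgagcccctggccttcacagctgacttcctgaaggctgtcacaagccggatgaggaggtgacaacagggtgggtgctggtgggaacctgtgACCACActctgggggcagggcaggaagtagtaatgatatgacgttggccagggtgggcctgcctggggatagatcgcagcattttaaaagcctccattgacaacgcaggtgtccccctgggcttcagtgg

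Consensus letters of 9 motifs of factors known from lymphocyte gene control were searched on both strands. The promoter of *Gzma* held an IRF match (GAAANNGAA) at 66 to 58 bases before the TSS, another on the other strand at 96 to 88 bases, and a RUNX match (TGTGGT) on the other strand at 50 to 45 bases. The promoter of *Gzmb* held RUNX matches at 93 to 88 and 34 to 29 bases before the TSS, an AP-1 match (TGANTCA) at 58 to 52 bases, and a T-box match (GTGTGA) on the other strand at 15 to 10 bases. The promoter of *Prf1* held 1 RUNX match, on the other strand at 130 to 125 bases. Of 32841 RefSeq promoters with the same window, 14% held the RUNX letters, 7.13% the IRF letters, 6.75% the AP-1 letters, and 12.3% the T-box letters. No match overlapped another in the windows shown. The GATA letters (GATAA) were in none of the 3 promoters and in 22.6% of all promoters.

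The central 300 bases of the distal OCR 2661 bp before the *Gzmk* TSS are shown because this OCR was most open in SI.
Gzmk −2661 chr13:113183477-113183776, minus strand: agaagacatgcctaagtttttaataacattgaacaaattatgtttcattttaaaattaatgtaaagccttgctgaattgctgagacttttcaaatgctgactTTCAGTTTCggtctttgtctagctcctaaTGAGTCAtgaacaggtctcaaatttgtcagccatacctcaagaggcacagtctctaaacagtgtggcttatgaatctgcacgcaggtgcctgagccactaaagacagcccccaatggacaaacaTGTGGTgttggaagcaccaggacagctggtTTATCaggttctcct

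The *Gzmk* −2661 window held 1 match each of IRF, AP-1, RUNX, and GATA. Over the central 300 bases of all 11 OCRs, 9 held the RUNX letters, against 29.1% of 50028 OCRs of the table. The 2 OCRs without them were *Gzmk* +8841 and *Gzmm* +1591. The GATA letters were in 5 of 11 windows, against 31.3% of all OCRs, and in no promoter window. T-box letters were in 3 of 11 (18.4% of all OCRs), AP-1 in 4 of 11 (18.3%), IRF in 3 of 11 (8.96%), and STAT letters (TTCNNNGAA) in 1 of 11 (7.92%). The CRE letters (TGACGTCA), the TATA letters (TATAAA), and the ETS letters (ACCGGAA) were in none. Across the table, 52.6% of OCRs with the RUNX letters and 40.7% of those without them differed among the tissues by the test used below. This split was not particular to RUNX. The shares with and without the letters were 62.2% and 40.1% for AP-1, 54.5% and 39.5% for GATA, and 51.7% and 42.5% for T-box. They went the other way for CRE (41.5% and 44.2%) and ETS (35.4% and 44.5%). A match describes letters only and was not tested as a binding site.

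Total counts per library lay between 10282987 and 32797872, and the median OCR had 71 to 259 counts in a library. The 11 OCRs had 3 to 270 counts in a library, so that many of their values rest on few reads. Levels are given as CPM, the reads of an OCR relative to those of the library, scaled by the trimmed mean of M-values (TMM), and differences as log2 with their standard error (SE). Tests are edgeR's quasi-likelihood tests on all OCRs with at least 1 count, with Benjamini-Hochberg adjustment over all of them. The SE was derived from the test of a difference, as the size of its log2 value divided by the square root of its F statistic. A bulk library cannot tell fewer cells with an open region from less accessibility per cell.

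All 9 genes of an ILC2 marker list, *Gata3*, *Il1rl1*, *Rora*, and *Il7r* among them, had OCRs in the table, whose summed level was 1789 and 2245 CPM in SI and 2343 to 3178 CPM in the other libraries. *Il1rl1* had 78.2 and 94.4 CPM in SI and 209 to 482 CPM elsewhere. In an F test over tissues on summed counts, the adjusted p was 1.42e-06 for *Il1rl1*, 0.0179 for *Il7r*, 0.0996 for *Gata3*, and 0.329 for *Rora*. Of 7 markers of NK cells and ILC1s, 5 had OCRs, whose summed level of 299.6 to 334.2 CPM varied little over the 10 libraries, and *Ncr1* and *Klra8*, which encode receptors of NK cells, had none. Although the sum varied little, 1 of these 5 differed among tissues by an F test on its summed counts (adjusted p 0.000684). That marker had 17.0 and 20.3 CPM in LI and 5.77 to 10.6 CPM in the other libraries. None of these 5 was higher in SI than in each other tissue. Of 7 T cell markers, 5 had OCRs (54.4 to 88.3 CPM in all, with 60.3 and 86.2 in the SI libraries), and *Cd8a* and *Cd8b1*, the coreceptor of cytotoxic T cells, had none. Among these T cell markers 1 was higher in SI than in each other tissue, and likewise 1 B cell marker. Of 5 B cell markers, 2 had OCRs, summing to 41.4 and 41.7 CPM in SI and 15.7 to 35.7 elsewhere, and *Cd79a* and *Ms4a1* were among those with none. Sums of ILC3 markers were 16.9 to 34.6 CPM (19.5 and 22.9 in SI), of mast cell and basophil markers 10.1 to 28.4, of myeloid markers 38.1 to 65.5, and of epithelial markers 47.0 to 102 CPM. By the F test on summed counts, 4 of 9 ILC2, 3 of 5 T cell, and 2 of 2 B cell markers with OCRs differed among tissues. So did 1 of 2 ILC3, 1 of 1 mast cell and basophil, 1 of 3 myeloid, and 2 of 3 epithelial markers. The share over all genes was 34.9%. The part of other cell types in the results was not tested.

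Of the 11 OCRs, 10 differed among the 5 tissues (F test over tissues, adjusted p under 0.05), and the exception was *Gzmm* +1591. The adjusted p was 9.23e-05 for *Gzma* −1024, 0.000200 for the *Gzma* promoter, at most 0.00241 for 7 others, and 0.0396 for *Gzmk* +8841. Over all 49981 OCRs tested, 44.2% differed, and the OCRs of a gene are not independent of each other. With each alternative fit and each library left out, 9 of the 10 kept an adjusted p under 0.05, and *Gzmk* +8841 did not. Both SI libraries lay above the other 8 libraries in 5 of the 11 OCRs, at *Gzma* (both), *Gzmk* −2661, the *Prf1* promoter, and *Prf1* +8478, against 7.29% of all OCRs. After counts were summed per gene, 4 of 5 genes differed among tissues, with adjusted p of 4.56e-05 for *Gzma*, 0.000107 for *Gzmb*, 0.000316 for *Prf1*, 0.0205 for *Gzmk*, and 0.613 for *Gzmm*. Over 17484 genes, 34.9% differed. The *Gzmk* sum joins 2 OCRs with unlike tissue orders, and its pancreas libraries lay far apart (4.47 and 15.4 CPM). Its SI libraries had 10.7 and 9.58 CPM, and SI minus pancreas was 0.06 on the log2 scale (adjusted p 0.943). The plot of the 11 OCRs by library shows 3 patterns. *Gzma* and *Gzmk* −2661 were highest in SI, the *Gzmb* OCRs were lowest in BM, and the *Prf1* OCRs had higher means in the intestines than in lung and pancreas, although LI over pancreas did not pass the threshold at *Prf1* +36861 (adjusted p 0.50). The means of the *Prf1* OCRs were also highest in SI.

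**Figure D1:**
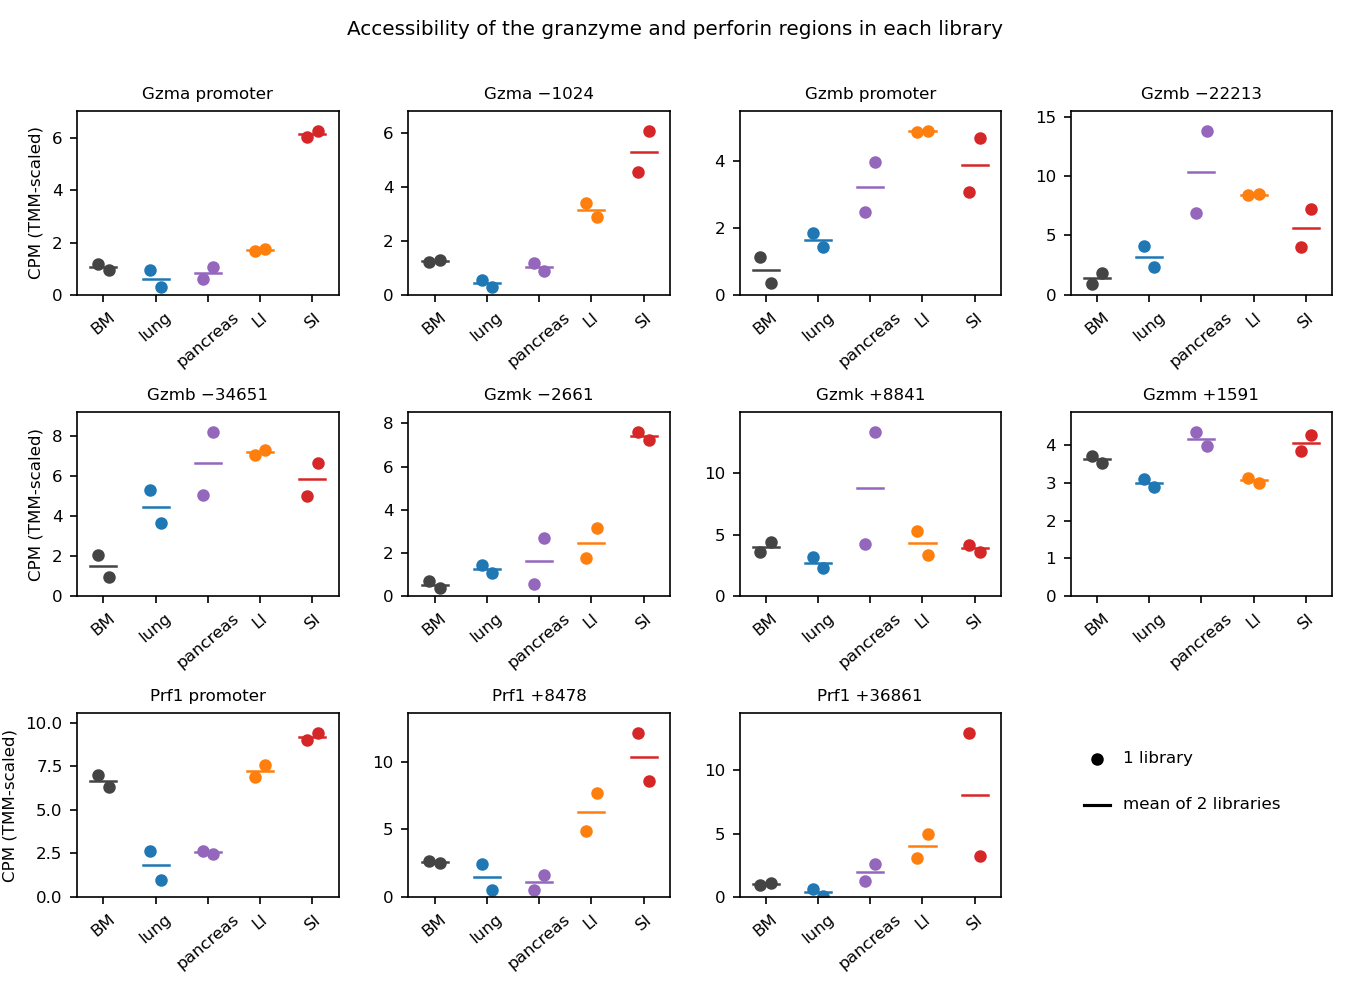
CPM (TMM-scaled, linear axes from 0) of the 11 OCRs in each of the 10 libraries, with points for libraries, lines for the mean of 2, and tissues on the x axis. The SI libraries of the *Gzma* promoter sit at 6.02 and 6.27 CPM, above 0.30 to 1.74 in the other 8 libraries, and the BM libraries of the 3 *Gzmb* OCRs sit lowest.

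An OCR was counted as specific to a tissue if it was higher, or lower, there than in each of the other 4, and if all 4 contrasts had an unadjusted p under 0.05. In SI, 2 OCRs were higher in this sense, the *Gzma* promoter and *Gzmk* −2661, against 2.8% of all OCRs. In BM, all 3 *Gzmb* OCRs were lower, against 6.63%. *Gzma* −1024 was lower in lung (1 OCR, against 1.72%), and *Gzmk* +8841 was higher in pancreas (1 OCR, against 1.43%). No OCR of the 11 was higher in BM (4.5% of all OCRs), LI (1.3%), or lung (1.3%), and none was lower in LI (0.132%), pancreas (0.572%), or SI (3.59%).

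*Gzma* had its promoter OCR (chr13:113100806-113101306, centre 75 bp before the TSS) and the −1024 OCR (chr13:113101755-113102255), which lies outside genes. The promoter had 1.17 and 0.97 CPM in BM, 0.94 and 0.30 in lung, 0.59 and 1.08 in pancreas, 1.66 and 1.74 in LI, and 6.02 and 6.27 in SI. Both SI libraries thus stood above every other library, and the LI libraries came next. Per kb of length, the promoter ranked at percentile 47.0 of all OCRs in SI, but at 4.13 in LI, 4.09 in BM, 2.08 in lung, and 0.551 in pancreas. It was 10.1-fold higher in SI than in lung (log2 3.34 ± 0.53, adjusted p 0.000313), and this difference was 4.29 without lung replicate 1 and 2.67 without lung replicate 2. It was 7.67-fold higher in SI than in pancreas and 5.72-fold higher than in BM, and both calls were kept in all 17 alternative fits. The difference from LI was 3.60-fold (log2 1.85 ± 0.50, adjusted p 0.0288). It lost its call without LI replicate 1 (adjusted p 0.126), LI replicate 2 (0.148), SI replicate 1 (0.0757), or SI replicate 2 (0.0736).

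The −1024 OCR had 1.22 and 1.29 CPM in BM, 0.55 and 0.30 in lung, 1.18 and 0.86 in pancreas, 3.40 and 2.87 in LI, and 4.53 and 6.06 in SI. Here both intestinal tissues stood above the other 3 with no overlap, and lung was lowest. SI was higher than BM (log2 2.07 ± 0.44, adjusted p 0.00245), pancreas (2.34 ± 0.47), and lung (3.65 ± 0.48), and these calls were kept in all 17 fits. The difference from LI was 0.77 ± 0.42 and missed the threshold (adjusted p 0.272). LI was also higher than lung by 2.89 ± 0.49, which was kept in all 17 fits, and than BM by 1.31 ± 0.45 (adjusted p 0.0355), which was lost without any 1 of the 4 BM and LI libraries (adjusted p 0.0816 to 0.149) and with GC and width trends removed (0.0927). Lung was lower than BM by 1.58 ± 0.49 on the log2 scale (adjusted p 0.0333), and this was lost without BM replicate 1 (0.103), BM replicate 2 (0.111), or lung replicate 2 (0.292), with library size alone as the scaling (0.0550), and in a fit of the 4 libraries alone (0.0695). Its specific decrease in lung had an unadjusted p of up to 0.0235 and an adjusted p of up to 0.162. It was lost without lung replicate 2 or pancreas replicate 1.

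*Gzmk* had no promoter OCR. Its −2661 OCR (chr13:113183376-113183876, outside genes) had 0.69 and 0.37 CPM in BM, 1.45 and 1.05 in lung, 0.53 and 2.70 in pancreas, 1.74 and 3.17 in LI, and 7.61 and 7.25 in SI. As at the *Gzma* promoter, both SI libraries were above every other library, and BM had the lowest mean. It was 14.0-fold higher in SI than in BM (log2 3.81 ± 0.61, adjusted p 0.000305) and 5.96-fold higher than in lung (2.58 ± 0.55, adjusted p 0.00282), and both calls were kept in all 17 fits. The pancreas libraries lay far apart, and SI exceeded pancreas by 2.32 ± 0.58 (adjusted p 0.0091), by 1.46 without pancreas replicate 1 (adjusted p 0.105), and by 3.79 without pancreas replicate 2. The difference from LI, 1.56 ± 0.53, had an unadjusted p of 0.0092 and an adjusted p of 0.0801. Without LI replicate 1 it no longer met the rule for a specific OCR. LI exceeded BM by 2.25 ± 0.62 (adjusted p 0.0118), a call lost without BM replicate 2 (0.104) or LI replicate 2 (0.129).

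The other *Gzmk* OCR, +8841 (chr13:113171874-113172374), had its centre in an intron of *Gzmk*. It had 3.57 and 4.37 CPM in BM, 3.18 and 2.26 in lung, 4.24 and 13.4 in pancreas, 5.32 and 3.35 in LI, and 4.19 and 3.59 in SI. Pancreas replicate 2 stood above the other 9 libraries, and pancreas replicate 1 lay within the range of the other 8. The F test gave an adjusted p of 0.0396, and 0.520 without pancreas replicate 2. It also missed the threshold without either BM library or either lung library. Pancreas was higher than lung by 1.67 ± 0.44 (adjusted p 0.0357), but by 0.65 without pancreas replicate 2 (adjusted p 0.617). The call was also lost without lung replicate 2 (0.316), lung replicate 1 (0.0778), BM replicate 1 (0.0554), or BM replicate 2 (0.0580), and without pancreas replicate 1 the difference was 2.30. The rule for an OCR specific to pancreas was met with an unadjusted p of up to 0.0355, and not without BM replicate 1, LI replicate 2, pancreas replicate 2, or SI replicate 2.

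Within 250 kb of the *Gzma* TSS, a stretch that holds *Gzmk*, the table had 23 OCRs, the 4 of *Gzma* and *Gzmk* included. Of these, 6 were higher in SI than in each other tissue, against 2.8% of all OCRs, and 2 of the 6 with adjusted p-values in each contrast, the *Gzma* promoter and the OCR described next. Both SI libraries lay above the other 8 in 11 of the 23, against 7.29% of all OCRs. An OCR between both genes, 19.7 kb before the *Gzma* TSS, was assigned to another gene, *1700084D21Rik*, and so is not counted among the 11. It had 10.4 and 19.6 CPM in SI, 3.40 and 5.08 in LI, and 0.83 to 3.34 in the other libraries, and SI was higher than each other tissue with an adjusted p of at most 0.0144. Another OCR, 144 kb before the *Gzma* TSS and nearest to *Esm1*, had 35.1 and 65.8 CPM in SI, 22.0 and 41.6 in LI, and 2.06 to 6.51 in the other libraries. Both were named after their values had been seen. Among 6 other genes listed for the neighbourhood of *Gzma* and *Gzmk*, summed counts of 3 differed among tissues, *Esm1*, *Gpx8*, and *Cdc20b*, against 34.9% of all genes. Those of *Mcidas*, *Ccno*, and *Snx18* had adjusted p of 0.126, 0.106, and 0.0552 in the F test, and none of the 23 OCRs was nearest to *Snx18*. The *Esm1* sum includes the OCR 144 kb before the *Gzma* TSS, and the *Gpx8* sum its promoter OCR. Both are among the 6 OCRs higher in SI, so these sums are not independent of the counts above. Within 250 kb of *Gzmb* there were 4 OCRs, of which its own 3 were lower in BM than in each other tissue (6.63% of all OCRs). Around *Prf1* 0 of 19 and around *Gzmm* 1 of 32 OCRs were higher in SI than in each other tissue (2.8% of all OCRs).

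**Figure D2:**
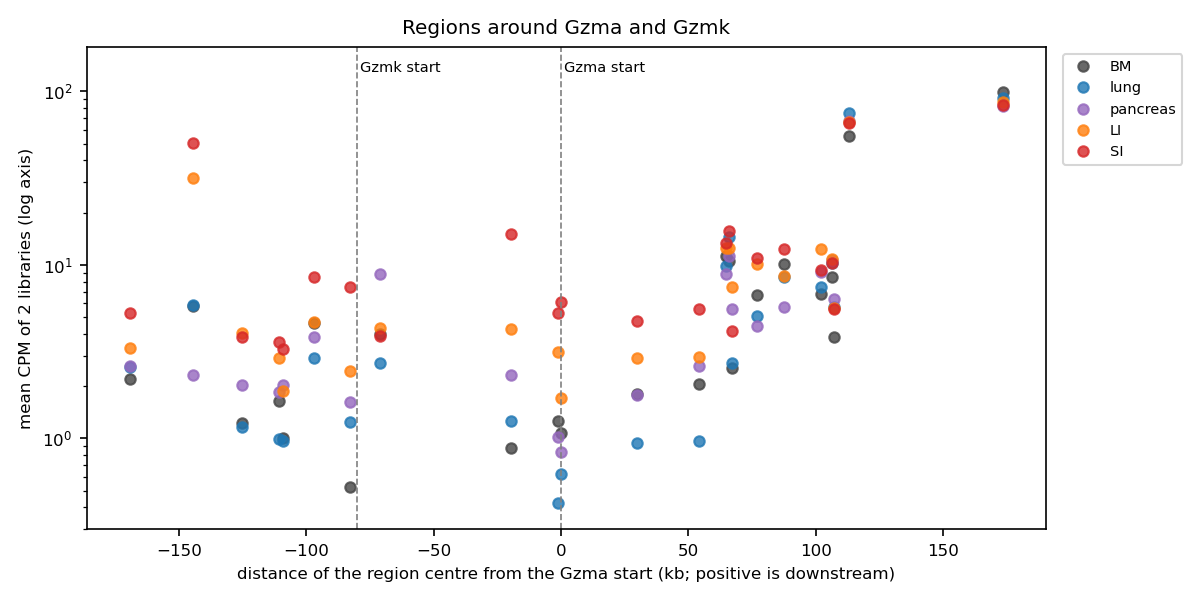
Mean CPM (log axis) of each OCR within 250 kb of the *Gzma* TSS in the 5 tissues against the distance of its centre in kb, with negative values upstream. Points of SI (red) lie highest at *Gzma*, at *Gzmk* −2661, and at the OCR 19.7 kb upstream, and the *Dhx29* promoter, 173 kb downstream, differs little among tissues (82.7 to 98.8 CPM).

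*Gzmb* had its promoter OCR (chr14:56262137-56262637, centre 53 bp before the TSS) and 2 OCRs outside genes, −22213 (chr14:56284293-56284801) and −34651 (chr14:56296693-56297278). The promoter had 1.13 and 0.37 CPM in BM, 1.84 and 1.44 in lung, 2.47 and 3.99 in pancreas, 4.88 and 4.91 in LI, and 3.08 and 4.70 in SI. BM was lowest with no overlap, lung came next, and pancreas, SI, and LI overlapped or lay close to each other. LI exceeded BM 6.56-fold (log2 2.71 ± 0.51, adjusted p 0.000929), with 3.71 without BM replicate 1 and 2.12 without BM replicate 2. SI exceeded BM 5.23-fold (2.39 ± 0.50, adjusted p 0.00226), with 3.39 and 1.79 in the same fits. Pancreas exceeded BM by 2.09 ± 0.52 (adjusted p 0.00857), by 3.09 without BM replicate 1, and by 1.49 without BM replicate 2 (adjusted p 0.0808), and the call was also lost without pancreas replicate 2 (0.0770). Lung was below LI by 1.58 ± 0.46 on the log2 scale (adjusted p 0.0356), a call lost when any 1 of the 4 LI and lung libraries was left out (adjusted p 0.0897 to 0.256) and with library size alone as the scaling (0.0540).

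The −22213 OCR had 0.93 and 1.84 CPM in BM, 4.08 and 2.32 in lung, 6.89 and 13.8 in pancreas, 8.37 and 8.52 in LI, and 4.04 and 7.21 in SI. Pancreas exceeded BM 7.31-fold (log2 2.87 ± 0.45, adjusted p 0.000305) and LI exceeded BM 6.05-fold (2.60 ± 0.45, adjusted p 0.000487), and both calls were kept in all 17 fits. SI exceeded BM by 2.02 ± 0.44 (adjusted p 0.0030), which was lost without BM replicate 1 (0.0559). Pancreas also exceeded lung by 1.68 ± 0.41 (adjusted p 0.0247), which was lost without lung replicate 2 (0.297) or pancreas replicate 2 (0.333). Lung was below LI by 1.41 ± 0.41 (adjusted p 0.0346), which was lost without LI replicate 1 (0.113), LI replicate 2 (0.117), or lung replicate 2 (0.325) and with library size alone as the scaling (0.0546).

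The −34651 OCR had 2.06 and 0.92 CPM in BM, 5.29 and 3.64 in lung, 5.06 and 8.20 in pancreas, 7.06 and 7.30 in LI, and 5.01 and 6.65 in SI. Each tissue other than BM exceeded BM, LI by 2.27 ± 0.40 (adjusted p 0.000587), pancreas by 2.14 ± 0.40, SI by 1.98 ± 0.40, and lung by 1.58 ± 0.39 (adjusted p 0.00919). Without BM replicate 1 these differences rose to 2.96, 2.82, 2.66, and 2.27. The call for lung was lost without BM replicate 2 (adjusted p 0.118) or lung replicate 1 (0.0709). No other pair of tissues passed the threshold at this OCR. It was the one *Gzmb* OCR that was lower in BM than in each other tissue when adjusted p-values were used in each contrast. Without lung replicate 1 it was also the one that met the rule with unadjusted p-values. The promoter missed the rule without BM replicate 2 (largest unadjusted p 0.040 with all libraries) and in fits of the 4 libraries of each comparison, and −22213 missed it without BM replicate 1 and with GC and width trends removed.

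*Gzmc*, and the 5 other granzyme genes of its cluster (*Gzmd*, *Gzme*, *Gzmf*, *Gzmg*, and *Gzmn*), had no OCR. Of 7 neighbouring protease genes expressed mainly in mast cells and neutrophils (*Ctsg*, *Cma1*, and 5 *Mcpt* genes), *Cma1*, which encodes a mast cell chymase, had OCRs. Its level was highest in pancreas (7.13 CPM) and lowest in SI (2.07 CPM), in another order than *Gzmb*.

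The *Gzmm* OCR, +1591 (chr10:79695163-79695672), had its centre 156 bp past the 3′ end of the gene. Its name counts from a TSS inside the gene, and the centre lies 6397 bp downstream of the TSS at the start of the gene. It had 3.72 and 3.54 CPM in BM, 3.10 and 2.90 in lung, 4.36 and 3.99 in pancreas, 3.14 and 3.0 in LI, and 3.85 and 4.28 in SI. All 10 libraries lay within a narrow range, the F test gave an adjusted p of 0.554, and none of 16 alternative fits brought it under 0.05 (0.475 to 0.762). The largest difference between tissues, pancreas over lung, was 0.48 ± 0.33 on the log2 scale.

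*Prf1* had a promoter OCR (chr10:61297211-61297962, centre 250 bp before the TSS), an OCR outside genes at +8478 (chr10:61306064-61306564), past its 3′ end, and an OCR at +36861 (chr10:61334447-61334947) that lies in an intron of *Pald1*. The promoter had 7.0 and 6.30 CPM in BM, 2.67 and 0.99 in lung, 2.65 and 2.48 in pancreas, 6.89 and 7.56 in LI, and 9.0 and 9.41 in SI. BM, LI, and SI thus lay above lung and pancreas with no overlap. SI exceeded lung 5.13-fold (log2 2.36 ± 0.37, adjusted p 0.000297; 3.18 without lung replicate 1 and 1.76 without lung replicate 2) and pancreas 3.57-fold (1.84 ± 0.38, adjusted p 0.00269). Lung was below BM by 1.89 ± 0.37 on the log2 scale (adjusted p 0.0017), and lung minus BM was −2.72 without lung replicate 1 and −1.30 without lung replicate 2. Lung was below LI by 2.01 ± 0.37 (adjusted p 0.00252). Lung minus LI was −2.86 without lung replicate 1, and the call was lost without lung replicate 2 (adjusted p 0.0553). Pancreas was below BM by 1.37 ± 0.38 (adjusted p 0.0167), a call lost without BM replicate 1 (0.0964), pancreas replicate 1 (0.0835), or pancreas replicate 2 (0.105). Pancreas was below LI by 1.49 ± 0.38 (adjusted p 0.0440), a call lost when any 1 of the BM, LI, and pancreas libraries was left out (0.0652 to 0.274). No pair among SI, LI, and BM passed the threshold, with SI above LI by 0.35 ± 0.35 (adjusted p 0.572) and above BM by 0.47 ± 0.34 (adjusted p 0.345).

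The +8478 OCR had 2.64 and 2.48 CPM in BM, 2.43 and 0.55 in lung, 0.53 and 1.62 in pancreas, 4.88 and 7.69 in LI, and 12.1 and 8.60 in SI. Both intestinal tissues stood above the other 3 with no overlap. SI exceeded pancreas 10.5-fold (log2 3.39 ± 0.60, adjusted p 0.000813; 2.67 without pancreas replicate 1 and 4.27 without pancreas replicate 2) and lung 7.14-fold (2.84 ± 0.53, adjusted p 0.00112; 4.19 without lung replicate 1 and 2.06 without lung replicate 2). SI exceeded BM by 2.01 ± 0.51 (adjusted p 0.00804), which was lost without BM replicate 1 (0.0640) or BM replicate 2 (0.0776). LI exceeded pancreas by 2.69 ± 0.60 (adjusted p 0.0215) and lung by 2.13 ± 0.53 (adjusted p 0.0152). The call against pancreas was lost without LI replicate 2 (0.179) or pancreas replicate 1 (0.314), and pancreas minus LI was −3.57 without pancreas replicate 2 (−2.69 with it). The call against lung was lost without LI replicate 2 (0.127) or lung replicate 2 (0.178), and lung minus LI was −3.52 without lung replicate 1 (−2.13 with it).

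The +36861 OCR had 0.93 and 1.10 CPM in BM, 0.67 and 0.08 in lung, 1.30 and 2.59 in pancreas, 3.05 and 4.95 in LI, and 13.0 and 3.20 in SI. SI replicate 1 stood above the other 9 libraries, and SI replicate 2 lay within the range of LI. The lung libraries had 17 and 3 counts. SI exceeded lung by 4.51 ± 0.75 on the log2 scale (adjusted p 0.000473), with 6.48 and 3.56 without lung replicates 1 and 2 and 3.14 and 5.19 without SI replicates 1 and 2. SI exceeded BM by 2.97 ± 0.68 (adjusted p 0.00417), by 1.63 without SI replicate 1 (adjusted p 0.120), and by 3.66 without SI replicate 2, and the call was also lost without BM replicate 1 (0.0547). SI exceeded pancreas by 2.1 ± 0.67 (adjusted p 0.0354), but by 0.73 without SI replicate 1 (adjusted p 0.531), by 2.78 without SI replicate 2, and without a call when a BM or pancreas library was left out (0.0513 to 0.251). LI exceeded lung by 3.53 ± 0.75 (adjusted p 0.00593). Lung minus LI was −5.52 without lung replicate 1 and −2.60 without lung replicate 2 (adjusted p 0.0948). LI exceeded BM by 1.99 ± 0.68 (adjusted p 0.0360), which was lost without any 1 of the BM and LI libraries (0.0501 to 0.208).

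**Figure D3:**
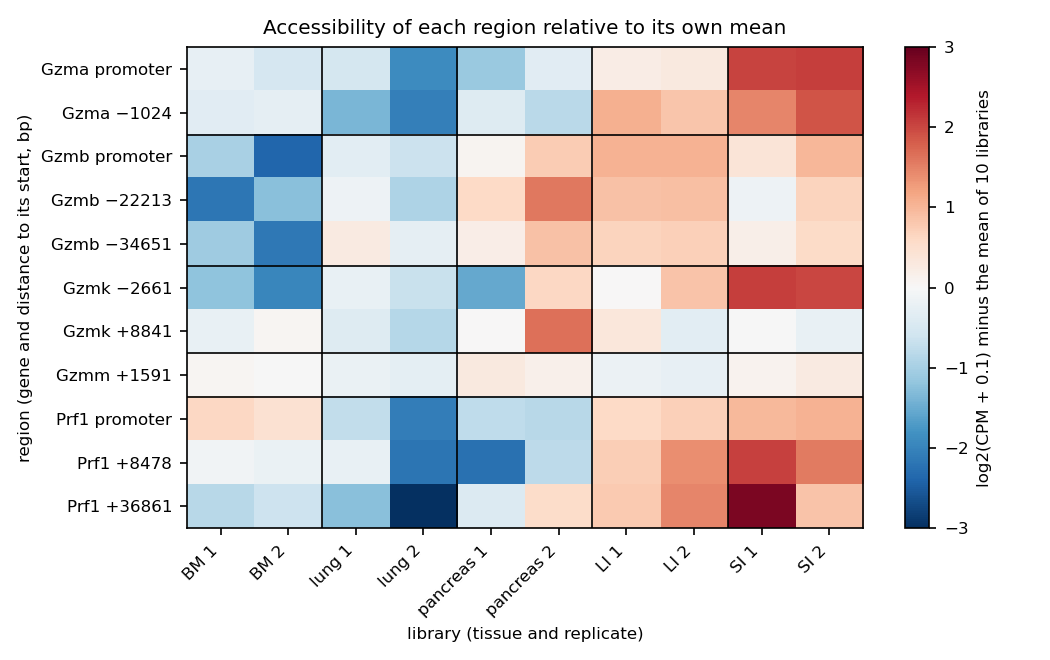
Log2(CPM + 0.1) of each OCR minus its mean over the 10 libraries, with OCRs in rows, libraries in columns, and red for values above the mean. *Gzma*, *Gzmk* −2661, and *Prf1* are red in both SI libraries, *Gzmb* is blue in both BM libraries, and *Gzmm* is pale throughout. *Prf1* is blue in lung, and its promoter and +8478 are also blue in pancreas.

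Over the 10 pairwise comparisons of tissues, which share libraries, 44 differences at the 11 OCRs had an adjusted p under 0.05, out of 10 comparisons of 11 OCRs each. SI and BM differed at 8 OCRs, higher in SI each time, against 25.8% of all OCRs. SI and lung differed at 6 (21%) and SI and pancreas at 6 (20.5%), each time with SI higher. SI and LI differed at 1, the *Gzma* promoter (8.44%). LI and BM differed at 6, all higher in LI (30.9%), and LI and lung at 6, all higher in LI (10.9%). LI and pancreas differed at 2 *Prf1* OCRs, higher in LI (3.27%). Lung and BM differed at 3 (19%), 1 of them higher in lung, and pancreas and BM at 4 (24.2%), 3 of them higher in pancreas. Pancreas and lung differed at 2, higher in pancreas (5.82%). The median difference of the 11 OCRs was 2.36 for SI minus lung, 2.02 for SI minus BM, 1.84 for SI minus pancreas, 0.41 for SI minus LI, and 1.31 for LI minus BM. The medians of all OCRs in the 10 comparisons lay between −0.05 and 0.06.

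**Figure D4:**
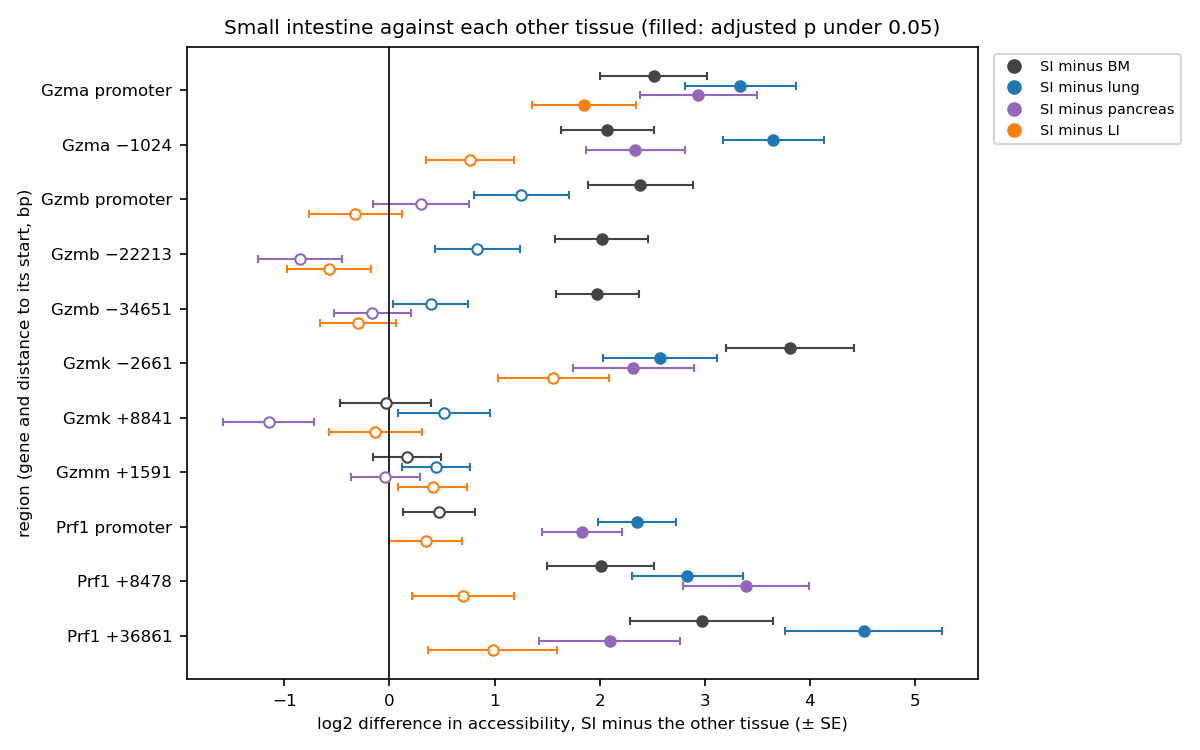
Log2 difference in accessibility of SI minus each other tissue (x axis, with SE bars derived from the F statistic of each contrast) for the 11 OCRs, with a colour for each tissue and filled points for an adjusted p under 0.05. All 4 differences of the *Gzma* promoter are filled and lie between 1.85 and 3.34, and no difference of *Gzmm* +1591 or *Gzmk* +8841 is filled.

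As a description over the same 10 libraries, the log2 CPM of the *Gzma* promoter had a Pearson r of 0.90 with *Gzma* −1024, 0.81 with *Gzmk* −2661, 0.82 with the *Prf1* promoter, 0.91 with *Prf1* +8478, and 0.83 with *Prf1* +36861. Its r with the 3 *Gzmb* OCRs was 0.25 to 0.47. The *Gzmb* OCRs had r of 0.82 to 0.96 with each other and 0.52 to 0.75 with *Gzmk* −2661. Their r was 0.40 to 0.56 with *Prf1* +36861, 0.17 to 0.40 with *Prf1* +8478, and −0.05 to 0.19 with the *Prf1* promoter. These values share the libraries and their depth, and the 2 libraries of a tissue are not independent points. Among 17484 genes, the summed accessibility most like that of *Gzma* was that of *Btbd11* (r 0.99), *Pou2af1* (0.98), and *Unc93a* (0.98), on other chromosomes. Those most like *Gzmb* were *Idi2*, *Mir8106*, and *St8sia1* (0.97 each), and those most like *Prf1* were *Nsl1* and *Gm31616* (0.97 each) and *Dnm3* (0.96). For *Gzmk* they were *Gm16108* and *Svop*, with the same value, and *Mtbp* (0.94 to 0.95), and for *Gzmm* *Clic1*, *Gm6623*, and *1700016B01Rik* (0.88 to 0.93).

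Genes that act with granzymes and perforin were compared by their summed counts, with the share of 34.9% of all genes that differed among tissues as background. Of 7 genes of granule storage and granzyme processing, 2 differed, *Ctsh*, a cathepsin that can process granzyme B, and *Nkg7*, a granule membrane protein. *Ctsh* had 23.4 CPM in BM, 53.5 in pancreas, 69.9 in lung, 96.0 in LI, and 98.3 in SI (means of 2 libraries, adjusted p for the F test 5.89e-06), and *Nkg7* had 6.24 in pancreas, 7.18 in lung, 11.6 in BM, 13.9 in LI, and 15.9 in SI (adjusted p 0.0141). The *Nkg7* level in LI had an SD of 7.07 CPM over its 2 libraries, so that its place relative to BM and SI is not fixed. *Srgn*, the granule proteoglycan, *Ctsc*, which activates granzymes, *Ctsl*, *Lamp1*, and *Lamp2* had adjusted p of 0.261 to 0.875. Of 7 genes of granule release with OCRs, 2 differed, *Lyst* and *Ap3b1*. *Lyst* was lowest in SI (93.3 CPM) and highest in pancreas (145 CPM). *Ap3b1* was highest in SI (23.8 CPM) and lowest in LI (8.19 CPM). *Unc13d*, *Stx11*, *Stxbp2*, *Rab27a*, and *Vamp8* had adjusted p of 0.0532 to 0.787. Of 3 intracellular granzyme inhibitors, *Serpinb9*, which inhibits granzyme B, and *Serpinb6b* differed. *Serpinb9* was most open in LI and least in BM (88.0 and 58.1 CPM), with 81.3 in pancreas, 72.4 in lung, and 61.4 in SI. *Serpinb6b* was also highest in LI (36.3 CPM), and it was lowest in lung (17.8 CPM). Of 6 transcription factor genes known from cytotoxic lymphocytes, *Runx3*, *Stat4*, and *Nfil3* differed. *Runx3* had 266 CPM in pancreas, 308 in BM, 311 in lung, 383 in LI, and 421 in SI. *Stat4* was highest in pancreas (192 CPM) and *Nfil3* in LI (133 CPM), and both were lowest in BM (113 and 86.5 CPM). *Tbx21* and *Eomes*, the T-box factors of NK cells, had 21.4 to 26.6 and 11.6 to 17.1 CPM and adjusted p of 0.593 and 0.354, and *Prdm1* had an adjusted p of 0.161. *Vamp7*, *Serpinb9b*, and *Zfp683* of these lists had no OCR.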

How the data were processed

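ATAC-seq of ILC2s was performed on 10 libraries, 2 for each of 5 tissues. Per the labels and the methods of the study, the authors checked reads with FastQC 0.11.9, aligned them to mm10 with Bowtie2 2.2.9 keeping unique alignments, handled them with SAMtools 1.8, called peaks with MACS2 2.1.1, kept peaks found in both libraries of a tissue, merged them with HOMER, and deposited raw read counts per OCR made with bedtools. The handling of duplicate and mitochondrial reads and of the transposase offset is not given in the sources used here. PCR reads are not independent molecules, so counts overstate the precision, and the total per library was 10282987 to 32797872. A merged peak set favours regions open in some tissue.

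Counts were tested with edgeR 4.0.16 (quasi-likelihood, TMM, tissue as the only term, R 4.3.3) over the 49981 OCRs with at least 1 count, with an F test, 10 pairwise contrasts, and Benjamini-Hochberg adjustment at 0.05. Specific OCRs followed the rule of the study, 4 contrasts with unadjusted p under 0.05. Counts of the OCRs of each gene were also summed and tested in 17484 genes. DESeq2 1.42.0, other scalings, filters, thresholds, and assignments, and leaving out each library were the alternatives. With 1 library of a tissue left out, the other is assumed to vary like the rest. The steps were tested on simulated data. Sequences were RefSeq promoters or were read from the GRCm38 genome, and 9 motifs were searched. All OCRs of the 6 genes were described, and for likeness the 3 genes with the highest Pearson r were named. The genes, gene lists, and markers were chosen with earlier results of these data known. Some items of the marker lists and sequences are not reported here.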

Additional observations from a re-analysis of the deposited data

How the results depend on the processing

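Of the 44 pairwise differences called by edgeR, each refitted under 17 alternatives, 66 values lost the call and 0 changed direction. The number of OCRs that differed among tissues, 10, became 4 when an OCR had to lie in the gene or its promoter and 6 when predicted transcripts and pseudogenes, an alternative chosen after seeing the data, also took part in the assignment. The same 2 assignments gave 15 and 25 pairwise calls in place of 44, since they keep 4 and 7 of the 11 OCRs. The 3 OCRs lower in BM became 1 under each of these 2 assignments and 1 with adjusted p-values in each contrast, and leaving out 1 library gave 1 (without lung replicate 1, *Gzmb* −34651) to 4 (without pancreas replicate 1). The 2 OCRs higher in SI became 4 with library size alone as the scaling, 1 with adjusted p-values, and 1 for OCRs in the gene or its promoter, and 1 (without LI replicate 1, the *Gzma* promoter) to 3 (without SI replicate 2) with 1 library left out. The 1 OCR lower in lung became 0 with library size alone, 0 with the 4 libraries of each comparison alone, 0 with adjusted p-values, 0 for OCRs in the gene or its promoter, 2 with DESeq2, and 2 with GC and width trends removed. It ranged from 0 (without lung replicate 2 or pancreas replicate 1) to 3 (without lung replicate 1), with 2 without either SI library. The 1 OCR higher in pancreas became 0 with GC and width trends removed and 0 with adjusted p-values, and ranged from 0 (without BM replicate 1, LI replicate 2, pancreas replicate 2, or SI replicate 2) to 1. The count lower in pancreas, 0, ranged from 0 to 1 (without lung replicate 2, *Prf1* +8478). Except where an alternative's own construction leaves fewer OCRs, the cause was not tested. Library size alone moved the median difference of all OCRs by 0.25 on the log2 scale between lung and LI, and the GC and width fit by −0.30 between SI and BM. Few reads limit these OCRs, with down to 3 counts in a library.

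The replicate numbers were not taken to pair the libraries, since no source says that a number is shared and the correlation of same-numbered deviations ran from −0.22 to 0.20, above 0.1 in 4 of the 10 pairs of tissues (BM with LI, and LI, lung, and SI with each other). A fit with the replicate number as a block gave 45 pairwise calls against 44, and 10 OCRs in the F test in both fits.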
